A study of Mus musculus with 6 samples.

Results

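Regulator of G protein signaling (RGS) genes were examined in the striatum of mice that overexpress Shank3, a scaffold protein of excitatory synapses. The 10 members were Rgs2, Rgs4, Rgs6, Rgs7, Rgs8, Rgs9, Rgs10, Rgs12, Rgs14 and Rgs16, taken from the 46078 genes of the deposited table by matching Ensembl identifiers to GENCODE M21 symbols. All 10 were found and all 10 passed the filter of a mean of at least 10 normalized read counts. The libraries came from 3 Shank3 transgenic (TG) and 3 wild-type (WT) mice, all males aged 12 weeks on a C57BL/6J background, with 1 mouse per library. The TG mice carry an EGFP-Shank3 transgene, so that a tagged protein is made in addition to the endogenous one, and the WT mice carry no transgene. Whole striatal tissue was sequenced, so fewer cells of a type and less RNA per cell cannot be told apart.

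When a receptor activates a G protein, the alpha subunit binds GTP and signals until it hydrolyzes that GTP. RGS proteins bind the active alpha subunit and accelerate hydrolysis, which shortens the signal of dopamine, opioid, muscarinic, adenosine and other receptors. The R4 subfamily (Rgs2, Rgs4, Rgs8, Rgs16) consists of small proteins with little beyond the RGS domain. Proteins of the R7 subfamily (Rgs6, Rgs7, Rgs9) are obligate partners of the G protein beta subunit encoded by Gnb5 and are anchored to membranes by Rgs7bp. In the R12 subfamily, Rgs12 and Rgs14 carry further domains that bind Ras-like GTPases and inactive alpha subunits, whereas Rgs10 is small. The striatum is known for a long isoform of Rgs9 in its GABAergic spiny projection neurons, where it acts on dopamine and opioid receptor signaling.

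The difference in protein size can be read from the annotation. The longest coding sequence of the R4 members encoded 180 residues for Rgs8, 201 for Rgs16, 205 for Rgs4 and 211 for Rgs2. That of the R7 members encoded 477 residues for Rgs7, 505 for Rgs6 and 675 for Rgs9. Within the R12 subfamily the length ran from 181 residues for Rgs10 through 547 for Rgs14 to 1451 for Rgs12.

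In the genome, 5 of the 10 members (Rgs2, Rgs4, Rgs7, Rgs8 and Rgs16) were on chromosome 1, which carried 6.63% of the 17519 tested genes with a position. Rgs8 and Rgs16 were neighbors on the plus strand, 40.0 kb apart with 0 coding genes between them. Rgs4 was 45.7 kb from Rgs5, another R4 gene, on the opposite strand, again with 0 coding genes between them. RefSeq promoter windows of build GRCm38.p6 were matched by symbol to 9 of the 10 members, all but Rgs14. Windows are shown for Rgs4 and Rgs9, the members with the highest levels, and for the neighbors Rgs8 and Rgs16, whose levels were far apart. Each line gives the 250 bases before the RefSeq start, 5′ to 3′ on the strand of the gene, with matches to 4 motifs in capitals. Searched on both strands were TGACG, a core element bound by CREB-like factors, the CCAAT box, and the GC box GGGCGG. The TATA box was searched as TATAAA on the strand shown only.
Rgs4 (chr1:169747643-169747892, minus strand): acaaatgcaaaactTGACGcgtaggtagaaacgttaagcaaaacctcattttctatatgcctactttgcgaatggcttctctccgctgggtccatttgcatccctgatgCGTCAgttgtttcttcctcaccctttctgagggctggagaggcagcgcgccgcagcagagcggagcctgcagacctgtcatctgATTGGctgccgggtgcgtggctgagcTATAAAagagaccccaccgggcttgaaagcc
Rgs9 (chr11:109298182-109298431, minus strand): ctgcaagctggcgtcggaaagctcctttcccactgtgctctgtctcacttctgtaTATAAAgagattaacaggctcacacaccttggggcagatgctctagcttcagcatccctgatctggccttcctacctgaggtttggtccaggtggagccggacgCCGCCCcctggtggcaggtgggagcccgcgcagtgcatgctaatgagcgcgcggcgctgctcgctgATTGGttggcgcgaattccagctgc
Rgs8 (chr1:153652787-153653036, plus strand): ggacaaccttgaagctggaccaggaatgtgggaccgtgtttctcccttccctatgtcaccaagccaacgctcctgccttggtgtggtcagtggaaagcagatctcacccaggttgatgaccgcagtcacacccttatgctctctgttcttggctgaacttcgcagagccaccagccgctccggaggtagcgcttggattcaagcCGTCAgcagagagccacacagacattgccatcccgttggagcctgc
Rgs16 (chr1:153740103-153740352, plus strand): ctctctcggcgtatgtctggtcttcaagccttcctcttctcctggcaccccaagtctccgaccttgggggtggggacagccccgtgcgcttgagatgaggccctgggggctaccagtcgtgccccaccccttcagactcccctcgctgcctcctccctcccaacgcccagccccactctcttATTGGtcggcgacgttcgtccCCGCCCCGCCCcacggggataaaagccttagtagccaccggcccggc

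A TATAAA match was present in the windows of Rgs4 and Rgs9 and in none of the other 7, against 7.59% of all 32851 RefSeq windows of this length. The match lay near the RefSeq start in Rgs4 but toward the far 5′ end of the window in Rgs9. A CCAAT match was present in Rgs4, Rgs9, Rgs16 and Rgs2, against 33.8% of all windows. TGACG was present in 3 of the 9 windows (2 times each in Rgs4 and Rgs2, 1 time in Rgs8), against 17.8% of all windows, and the whole palindrome TGACGTCA, which contains it on both strands, occurred in 0 of the 9 windows and in 1.55% of all. GGGCGG was present in 5 of the 9 windows (4 times in Rgs2, 3 in Rgs12, 2 in Rgs10, 2, overlapping, in Rgs16 and 1 in Rgs9), against 32.7% of all windows. The neighbors Rgs8 and Rgs16 therefore had no motif of the 4 in common. The GC content was 53.6% in Rgs4, 59.6% in Rgs9, 57.2% in Rgs8 and 66.4% in Rgs16, with a median of 52.4% over all windows. For Rgs8 the window nearest to the GENCODE start was taken from 3. The RefSeq start used for Rgs6 lies 29207 bases from the GENCODE start, and that for Rgs10 lies 586 bases from it. A match to these letters is a description and not a bound site.

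The libraries held between 27689589 and 36647626 recovered reads assigned to genes, with a median of 32342629 in TG and 32087895 in WT. Shank3 itself stood at 29891, 28309 and 26044 normalized read counts in TG replicates 1, 2 and 3 (TG1 to TG3) and at 13807, 12918 and 13865 in WT replicates 1, 2 and 3 (WT1 to WT3), so every library matched its label. The log2 fold change of Shank3 was 1.05, and it was the 1 gene of 17605 tested that passed an adjusted p of 0.05 (limma with Benjamini-Hochberg adjustment). As a check of the tissue, the summed value of 8 markers of spiny projection neurons was between 119701 and 155289 normalized read counts. Ppp1r1b (DARPP-32) was the most abundant of them. The sum of 10 markers of cortical excitatory neurons was 30436 to 43243. These sums are not divided by length. Per kb of exon, Ppp1r1b stood at 8554 and the cortical marker Slc17a7 at 4854, the latter at the percentile of 99.1 of the tested genes. Markers of cortical neurons were thus well expressed in these libraries, and the part of such cells in the RGS levels was not tested. Choroid plexus markers were uneven, with a sum of 15605 in TG1, 2003 in TG2 and 570 to 923 in the other 4 libraries.

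Levels were compared between genes as normalized read counts per kb of exon. The length was that of all annotated exons merged (the exon union), which can exceed that of the transcripts present. The effect of gene length is therefore reduced but not removed. Rgs4 was the most abundant member at 7546 per kb, higher than 99.6% of the tested genes. Rgs9 followed at 2385 per kb, at the percentile of 97.6. Rgs2 stood at 845, Rgs8 at 619, Rgs14 at 503, Rgs10 at 482 and Rgs7 at 337 per kb. The bottom of the order was formed by Rgs12 at 182, Rgs6 at 136 and Rgs16 at 68.8 per kb, the last at the percentile of 38.3.

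**Figure D1:**
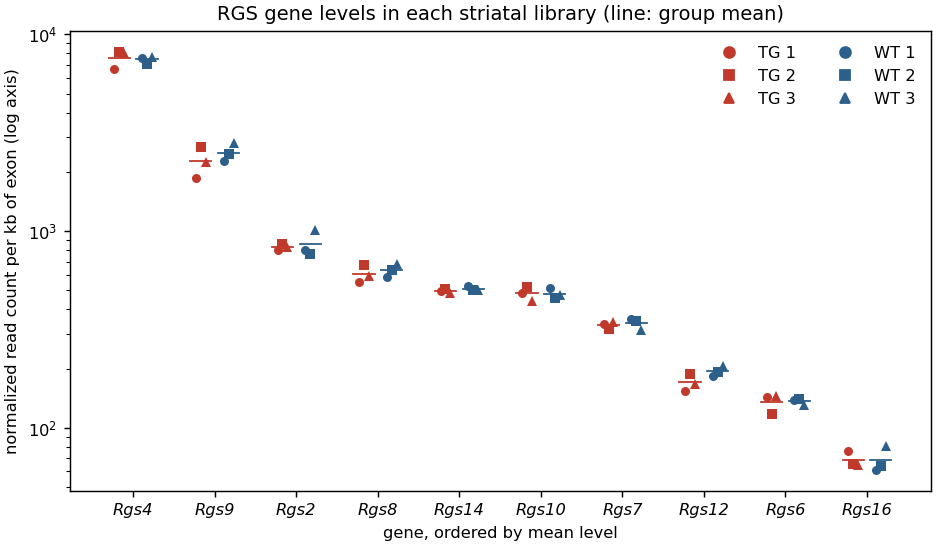
Level of each RGS gene in the 3 TG (red) and 3 WT (blue) striatal libraries. The y axis is the normalized read count per kb of exon on a log axis, symbols are single libraries and lines are group means. Rgs4 lies highest at 7546 per kb and Rgs16 lowest at 68.8, and the TG and WT libraries overlap for every gene.

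This order was held by nearly all neighbors in all libraries. Rgs4 exceeded Rgs9 by a ratio of means of 3.16, with 2.75 to 3.59 in single libraries, and Rgs9 exceeded Rgs2 by a ratio of 2.82. Rgs14 and Rgs10 were the only neighbors whose ranges over the 6 libraries overlapped, with a ratio between 0.972 and 1.10 and Rgs14 higher in 5 of 6 libraries. The chromosome 1 neighbors Rgs8 and Rgs16 differed by a ratio of 7.21 to 10.2 per kb, and Rgs4 and Rgs5 by 8.66 to 10.4. The middle of the order and the size of the gaps rest on the length used. When the length of the longest coding transcript replaced the exon union, a choice made after seeing the data, Rgs8 moved from rank 4 to rank 7 with 704 per kb, below Rgs10 at 938, Rgs14 at 904 and Rgs7 at 834, and Rgs4, Rgs9 and Rgs2 kept the first 3 ranks.

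By subfamily, the R4 genes made up 67.7% to 71.3% of the summed level per kb of the 10 members. The R7 genes made up 20.2% to 23.3% and the R12 genes 8.18% to 9.79%. These shares rest on the exon union as length. With the longest coding transcript, Rgs9 rose from 2385 to 4400 per kb and Rgs4 from 7546 to 7949, so the shares would differ. Among the R7 genes with Rgs11 included, Rgs9 took 68.8% in TG1 to 77.0% in TG2. Rgs11 took 10.4% to 14.1%, Rgs7 8.63% to 12.5% and Rgs6 3.39% to 5.29%. The level of R7 transcripts was thus mostly that of Rgs9 in every library. On the same exon union, their common partner Gnb5 stood at 1390.5 per kb, and the 4 R7 genes summed to 2.08 to 2.50 times its level.

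The comparison of TG with WT asked whether the levels of RGS genes differed with Shank3 overexpression. None of the 10 members passed the adjusted threshold in limma, against a background of 0.00568% of all genes tested, and none was called by DESeq2, edgeR or limma-voom on the recovered reads. At an unadjusted limma p under 0.05, 1 of 10 members passed (Rgs12, lower in TG), where the background was 4.31%. Non-overlapping groups were seen in 0 of 10 members, against 10.1% of all genes. The mean was lower in TG for 7 of 10 members, against 50.8% of all genes, and the median log2 fold change was −0.03, against −0.0018 for all genes (quartiles −0.07 and 0.06).

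**Figure D2:**
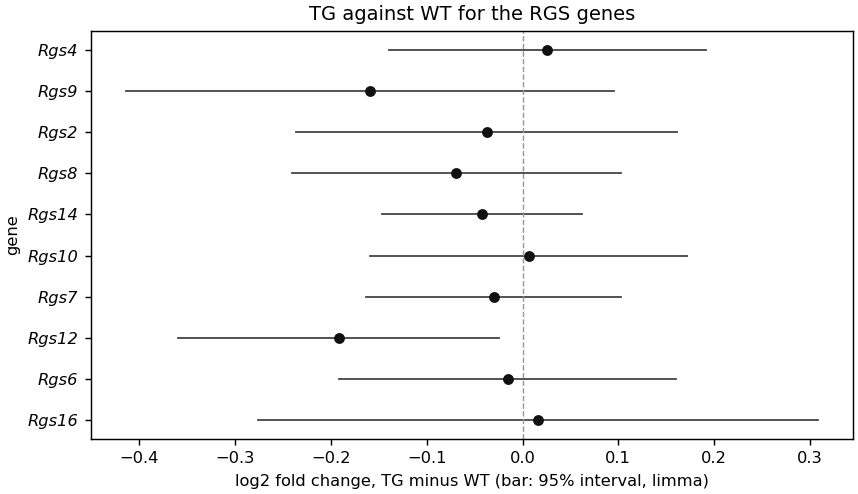
Log2 fold change of each RGS gene, TG minus WT, with genes ordered by level. Points are limma estimates on log2(normalized read count + 1) and bars are 95% intervals. The interval of Rgs12, −0.36 to −0.02, is the only one that leaves out 0, at an unadjusted p, and the widest is that of Rgs16, −0.28 to 0.31.

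Among the R4 genes, Rgs4 (ENSMUSG00000038530, chr1:169741477-169747642, minus strand, GRCm38) acts on Gi/o and Gq subunits. It stood at 20745, 25171 and 24966 normalized read counts in TG1, TG2 and TG3 and at 23560.5, 21999 and 23825 in WT1, WT2 and WT3. TG libraries held both the lowest and the highest values, so the WT range lay within that of TG. The means were 23627 ± 2498 in TG and 23128 ± 986 in WT (SD, n = 3 each). The log2 fold change was 0.03 (SE 0.07), with a 95% interval that allows −9.24% to 14.2% and an adjusted p of 0.988 in limma.

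Rgs2 (ENSMUSG00000026360, chr1:143999338-144004161, minus strand) is selective for Gq and is induced by neuronal activity. Its values were 2913, 3107 and 3022 in TG and 2902, 2771 and 3674 in WT. WT3 stood apart from the other 5 libraries, all of which fell between 2771 and 3107. TG differed from WT by a log2 fold change of −0.04 (95% interval −0.24 to 0.16), or of 0.09 without WT3.

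Rgs8 (ENSMUSG00000042671, chr1:153653025-153700323, plus strand) acts on Gi/o subunits. Its values were 5300.1, 6458 and 5729 in TG and 5609, 6122 and 6595 in WT. The groups overlapped over most of their range, with the lowest value in TG1 and the highest in WT3. The fitted difference was −0.07 on the log2 scale (95% interval −0.24 to 0.10).

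Rgs16 (ENSMUSG00000026475, chr1:153740349-153745468, plus strand), a gene induced by extracellular signals in many tissues, was the weakest member. Its values were 178, 154 and 152 in TG and 143, 150 and 188 in WT, from 125 to 208 reads per library. The order mixed the groups, with WT3 highest and WT1 lowest. Its log2 fold change was 0.02 (95% interval −0.28 to 0.31), so a difference between −17.4% and 23.8% cannot be told from none at this spread. Of its exon bases, 10.1% are shared with the antisense gene Gm28513, which had at most 1.14 normalized read counts. The library kit does not mark strand, and reads from those bases cannot be assigned to either gene with certainty.

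Of the R7 genes, Rgs9 (ENSMUSG00000020599, chr11:109225355-109298129, minus strand) was the most variable member. It stood at 11908, 17059 and 14399.6 normalized read counts in TG1, TG2 and TG3 and at 14520.1, 15695 and 17876 in WT1, WT2 and WT3. TG1 and TG3 lay below all WT libraries, whereas TG2 exceeded WT1 and WT2. The means were 14455 ± 2576 in TG and 16030.3 ± 1703 in WT (SD, n = 3 each). TG was not separated from WT, with a fitted log2 fold change of −0.16 (SE 0.12), with a 95% interval from −25.0% to 6.86% and an adjusted p of 0.971 in limma. It was −0.29 without TG2, where the unadjusted limma p was 0.0116 and the adjusted p 0.721, −0.23 without WT1, −0.08 without WT3 and −0.03 without TG1.

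Rgs7 (ENSMUSG00000026527, chr1:175059087-175492500, minus strand) forms complexes with the orphan receptor encoded by Gpr158. Its values were 2038, 1905 and 2076 in TG and 2149, 2099.6 and 1902 in WT. All 6 libraries fell within a ratio of 1.13, and the groups were mixed. Its log2 fold change was −0.03 (95% interval −0.16 to 0.10).

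Rgs6 (ENSMUSG00000021219, chr12:82588292-83162056, plus strand), best known for its action on muscarinic signaling in the heart, showed 1437, 1179 and 1461 in TG and 1383, 1406 and 1316 in WT. TG2 was lowest, and the other 5 libraries lay between 1316 and 1461. TG differed from WT by −0.02 on the log2 scale (95% interval −0.19 to 0.16), and by 0.08 without TG2.

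In the R12 subfamily, Rgs12 (ENSMUSG00000029101, chr5:34949445-35039644, plus strand) is the largest protein of the set and acts as a scaffold as well as an RGS protein. It stood at 1311, 1599 and 1422 normalized read counts in TG1, TG2 and TG3 and at 1552, 1639 and 1748 in WT1, WT2 and WT3. TG1 and TG3 were below all WT libraries, and TG2 was above WT1, so that the groups overlapped by this pair. The means were 1444 ± 145 in TG and 1646 ± 98.5 in WT (SD, n = 3 each). The log2 fold change was −0.19 (SE 0.08), with a 95% interval from −22.1% to −1.69%. The unadjusted limma p was 0.0284 and the adjusted p was 0.971, and a two-sided exact permutation test gave p = 0.2, where 0.1 is the smallest value possible with 3 against 3. Without TG1 the log2 fold change was −0.12 and without TG2 it was −0.27. The unadjusted p was no longer under 0.05 when TG1, TG3, WT2 or WT3 was left out. An antisense gene, Gm43791, shares 5.50% of the exon bases of Rgs12 and was listed at 0 in every library. As for Rgs16, reads from the shared bases cannot be assigned to either gene with certainty.

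Rgs14 (ENSMUSG00000052087, chr13:55369732-55384687, plus strand) also binds inactive alpha subunits. Its values were 2094, 2146 and 2058 in TG and 2232, 2117 and 2137 in WT. This was the steadiest member, with the highest library 1.08 times the lowest and a log2 SD within groups of 0.036, close to the 0.031 given by counting error alone. Its log2 fold change was −0.04, with the narrowest 95% interval of the set (−0.15 to 0.06).

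Rgs10 (ENSMUSG00000030844, chr7:128373621-128418758, minus strand) is abundant in microglia as well as in neurons. Its values were 834, 891 and 757 in TG and 876, 782 and 811 in WT. TG libraries held both extremes, and the log2 fold change was 0.0063 (95% interval −0.16 to 0.17). Over the same libraries, 10 of 10 microglia markers had a lower mean in TG, with a summed level of 12610 to 13596 in TG and 13702 to 14358 in WT. The share of all genes with a lower mean was 50.8%. Of those markers 4 were at an unadjusted limma p under 0.05, against 4.31% of all genes, 5 (Cx3cr1, Tmem119, C1qa, C1qc and Trem2) had groups without overlap, against 10.1% of all genes, and 0 passed the adjusted threshold. The part of microglia in the level of Rgs10 was not tested.

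The spread between libraries of a group was far above counting error for the abundant members. The log2 SD within groups was 0.21 for Rgs9 and 0.12 for Rgs4, against 0.012 and 0.0094 from counting alone, and the median of all tested genes was 0.11. From the lowest to the highest library, Rgs9 differed by a ratio of 1.50, Rgs12 and Rgs2 by 1.33 and Rgs16 by 1.32. With 1 library per mouse, differences between mice, dissections and library preparations cannot be told apart. For Rgs14 (0.036 against 0.031) and Rgs16 (0.18 against 0.11) counting error was nearer to the spread.

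The libraries at the extremes were not spread evenly. TG1 had the lowest value for 4 of the 10 members (Rgs4, Rgs8, Rgs9 and Rgs12) and the highest for 0. WT3 had the highest value for 5 members (Rgs2, Rgs8, Rgs9, Rgs12 and Rgs16). The shares of all genes that were lowest in TG1 or highest in WT3 were not computed. TG1 was also the lowest library for the summed values of other RGS genes, R7 partners, alpha subunits, receptors and effectors. Abundant genes weigh most in such sums, and single genes of these lists went both ways. In TG1, Rgs5, Gnao1 and Adcy5 were at their lowest, whereas Rgs3, Rgs19 and Gnai1 were at their highest. Relative to the mean of the 6 libraries, Rgs9 departed by −0.34 on the log2 scale in TG1, Rgs12 by −0.23, and Rgs4 and Rgs8 by −0.17 each. The summed spiny neuron markers departed by −0.24 in TG1 and by 0.14 in both TG2 and WT3. The same 8 markers all had a lower mean in TG (median log2 fold change −0.09), and none of the 8 passed an unadjusted p of 0.05. The summed cortical markers departed by 0.18 in TG1, by −0.33 in TG2 and by −0.11 in WT3. Their part in the RGS values was not tested.

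**Figure D3:**
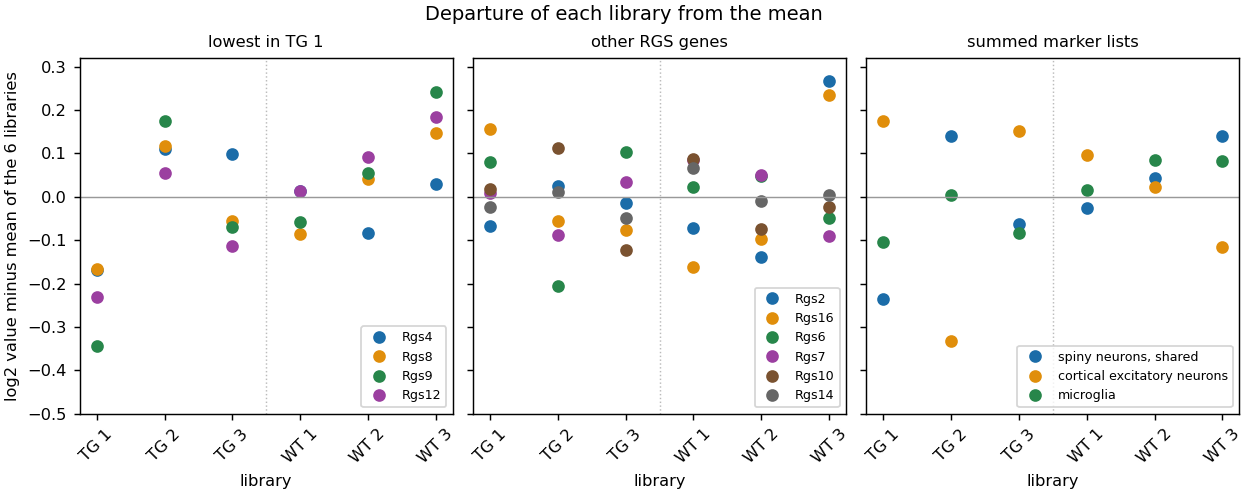
Departure of each library from the mean of the 6 libraries on the log2 scale, for the 4 RGS genes that were lowest in TG1 (left), the other 6 RGS genes (middle) and 3 summed marker lists (right). Points are single libraries. In TG1, Rgs9 lies at −0.34 and the spiny neuron markers at −0.24, while the cortical markers lie at 0.18.

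Levels were also set against those markers. Per 100 counts of the summed spiny neuron markers, Rgs9 had 9.95, 11.0 and 10.7 in TG1, TG2 and TG3 and 10.5, 10.8 and 11.5 in WT1, WT2 and WT3, and the groups overlapped. Rgs12 had 1.10, 1.03 and 1.05 in TG and 1.12, 1.13 and 1.13 in WT. On this scale TG was below WT without overlap, by 0.09 on the log2 scale. The two-sided exact permutation p was 0.1, the smallest possible, or 0.571 after adjustment over the 8 ratios computed. In normalized read counts, 10.1% of all genes had groups without overlap, and the share after division by the markers was not computed. Of the members, only Rgs9 and Rgs12 were set against the spiny neuron markers. Rgs10 had 5.92 to 6.61 per 100 counts of the summed microglia markers in TG and 5.45 to 6.39 in WT. The ratio of Rgs9 to Gnb5, both per kb, was 1.43, 1.90 and 1.63 in TG and 1.76, 1.64 and 1.90 in WT, again with overlap. The ratio of Rgs9 to Rgs7bp was between 1.06 and 1.20 in TG and between 1.16 and 1.30 in WT.

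Beyond the 10 members, the remaining RGS genes and the proteins around them in the pathway were read from the same fit, and none passed the adjusted threshold. Of 11 other RGS genes, 7 passed the filter, 3 with a higher and 4 with a lower mean in TG, and 0 passed an unadjusted p of 0.05. The most abundant was Rgs5, a marker of pericytes, at 771 per kb. It had 3001, 3557 and 3652 normalized read counts in TG and 3991, 3138 and 3698 in WT (log2 fold change −0.08). Rgs1, Rgs13 and Rgs18 were below the filter, and Rgs21 was listed at 0 in every library.

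Of 5 partner proteins of R7 genes, 4 were tested, with 2 higher and 2 lower means and 0 at an unadjusted p of 0.05. Rgs7bp, the membrane anchor, was the most abundant at 2045 per kb, with 12394, 15745 and 15059 in TG and 13888, 14548 and 15211 in WT (log2 fold change −0.02). TG1 was the lowest library here as it was for Rgs9. Rgs9bp, the anchor known from photoreceptors, was below the filter with at most 9.35 normalized read counts.

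Of 11 alpha subunit genes, 3 had a higher and 8 a lower mean in TG, with 0 at an unadjusted p of 0.05. Their median log2 fold change was −0.03. The list covers alpha subunits in general and was not limited to those on which the 10 members act. Gnao1, which encodes the Go subunit, was the most abundant at 2363 per kb (log2 fold change −0.06). Of 14 receptors, 4 had a higher and 10 a lower mean in TG, again with 0 at an unadjusted p of 0.05. Of 14 effectors, 8 had a higher and 6 a lower mean. Adcy5, the main adenylyl cyclase of the striatum, was the most abundant at 5368 per kb (log2 fold change −0.14). Plcb4, a phospholipase C activated by Gq, was the only effector at an unadjusted p under 0.05 (0.0431, or 0.971 after adjustment, in limma), and its exact two-sided permutation p was 0.2. It had 2010.4, 1747 and 2169 in TG and 1626, 1902 and 1637 in WT (log2 fold change 0.20), and the groups overlapped.

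**Figure D4:**
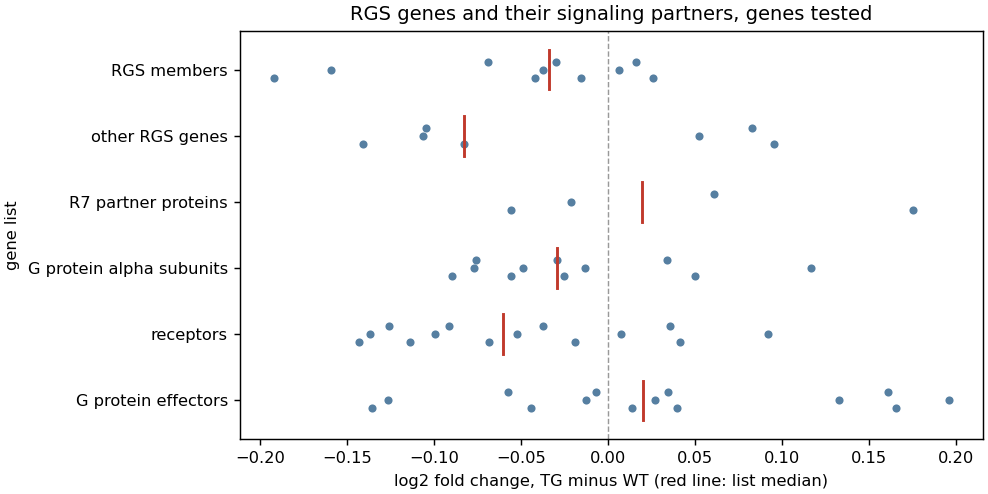
Log2 fold change, TG minus WT, of the tested genes of the RGS set and of 5 lists of related genes. Points are genes, vertical position within a list has no meaning, and red lines are list medians, which lie between −0.08 for the other RGS genes and 0.02 for the effectors. All points fall between −0.20 and 0.20.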

How the data were processed

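Striatal RNA of 3 TG and 3 WT mice, 1 mouse per library, was sequenced from a kit that does not mark strand. Per the labels and the paper, Trimmomatic 0.35, TopHat2 2.1.0 (GRCm38) and HTSeq gene counting were used. The strand setting is not given in the sources used here. The values the authors deposited are a size-factor normalized signal, that is, each gene count over the DESeq2 size factor of its library. Division by the smallest value above 0 gave whole reads within 0.01 for 100% of values. RGS and related genes were matched to GENCODE M21, whose merged exons gave the lengths.

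Genes with a mean of at least 10 (17605) were tested with limma 3.58.1 in R 4.3.3, with the trend option and a pseudocount of 1 on the log2 scale, and p-values were adjusted by Benjamini-Hochberg to a threshold of 0.05. Fold changes are on that scale. DESeq2 1.42.0, edgeR 4.0.16 and limma-voom on recovered reads, other scalings, filters and pseudocounts, each library left out and the replicate number as a block were alternatives. The scripts were tested on simulated data. Single values were compared by exact permutation tests.

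The members, lists and tests were chosen with earlier results of these data known. Named genes were the 10 members, the most abundant gene of each related list (that of the receptors is not reported here) and any at an unadjusted p under 0.05, Shank3, and the 3 genes most like the member with the smallest p. Gnb5, Rgs9bp, Rgs11, Vtn, the RGS genes below the filter, other genes named for their place in TG1 and overlapping antisense genes were added after values were seen.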

Additional observations from a re-analysis of the deposited data

How the results depend on the processing

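The number of RGS genes called was 0 under every alternative. Over all genes, 1 was called in the reported test, 7 by DESeq2, 5 without a filter on low values, and 1 to 2 when a library was left out (2 without TG2 and 2 without TG3). The paper reported more differentially expressed genes than any of these fits. It used DESeq2 with an empirical correction of the p-values before their adjustment, which was not repeated here. Of the alternative log2 fold changes of the members, 145 kept their direction and 15 changed sign, all of them on leaving out a library. Over the 6 fits that left out a library, the log2 fold change of Rgs2 ran from −0.12 (without WT2) to 0.087 (without WT3), that of Rgs4 from −0.022 (without TG2) to 0.12 (without TG1), and that of Rgs16 from −0.060 (without WT1) to 0.14 (without WT3). Rgs6 ran from −0.071 (without TG3) to 0.083 (without TG2), Rgs7 from −0.083 (without WT3) to 0.0067 (without TG2), and Rgs10 from −0.049 (without TG2) to 0.069 (without TG3). The cause was not tested. Rgs8, Rgs9, Rgs12 and Rgs14 kept a lower mean in TG in all fits, but their sizes moved, from −0.15 (without TG2) to −0.0030 (without TG1) for Rgs8 and from −0.058 (without TG2) to −0.019 (without WT1) for Rgs14. Deviations of same-numbered TG and WT libraries had r of 0.047, 0.016 and 0.093, against −0.12 to 0.077 for the other pairs. Whether the numbers pair the mice cannot be decided from this, because a pairing that moves few genes would not show. With the replicate number as a block, 1 gene and 0 RGS genes were called. In that limma fit Rgs12 had a log2 fold change of −0.19 (unadjusted p 0.0107, adjusted p 0.851). Rgs9 had −0.16 (unadjusted p 0.0749, adjusted p 0.853). The smallest adjusted p of any member was 0.569, for Rgs12 in limma without TG2.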

Other observations

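The genes whose profiles over the 6 libraries were most like that of Rgs12 were found by the root mean square difference of centered log2 values among 12831 genes with a mean of at least 100. Trf, which encodes transferrin, differed by 0.020, Pls1, which encodes an actin-bundling plastin, by 0.029 and Bcl11b, a transcription factor of spiny neurons and 1 of the 8 spiny neuron markers, by 0.029, where the profile of Rgs12 itself has a root mean square of 0.14. With 6 libraries this likeness is a description.

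Endothelial and mural markers, among which Rgs5 is often counted, were lower in TG for 6 of 8 genes, against 50.8% of all genes. Their summed level was 7743 to 8555 in TG and 7765 to 9122 in WT. Only Vtn was at an unadjusted limma p under 0.05 (4.31% of all genes), and only Vtn had groups without overlap (10.1% of all genes). None passed the adjusted threshold. The immediate early genes, among which activity-induced genes such as Rgs2 are often grouped, summed to 43023, 33887 and 37069 in TG1, TG2 and TG3 and to 34466, 35074 and 44679 in WT1, WT2 and WT3. WT3 was highest for this sum and for Rgs2, whereas TG1, next in this sum, had 2913 for Rgs2, within the range of the other libraries. By list, median log2 fold changes were 0.01 for direct pathway markers, −0.12 for indirect pathway markers (4 of 5 matched), 0.07 for thalamic, −0.03 for oligodendrocyte and −0.01 for astrocyte markers. The median was 1.30 for choroid plexus markers, with a higher mean in TG for 9 of 9 tested. Of these, 4 were at an unadjusted limma p under 0.05, against 4.31% of all genes. Groups did not overlap for 2, against 10.1% of all genes, and 0 passed the adjusted threshold.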
